A study of Mus musculus with 13 samples.

Results

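The territories of H3K9me3 and H3K27me3 were compared in untreated mouse embryonic stem cells by counting, in fixed windows of the genome, the bases that lay in peaks of each chromatin immunoprecipitation library. The members were the 6 peak lists of untreated cells, 4 for H3K9me3 and 2 for H3K27me3, of 8 lists at hand and 13 samples in the labels. All came from J1 embryonic stem cells that carry an inducible Setdb1 knockout and were grown without feeders, in serum with leukaemia inhibitory factor. The knockout had not been induced in these cells, and the labels do not tell which of them received the solvent of tamoxifen. The other 2 lists, of H3K27me3 after 2.5 μM tamoxifen, which induces the ablation of Setdb1, served as a readout that did not rank or class any window. Windows were laid between the first and the last peak of any of the 8 lists, and the 6 untreated lists alone gave the same windows. The 5 input samples were not analysed here. The whole design rests on 1 engineered line, and no label says that libraries came from separate cultures, so differences between lists of a mark may be technical. Positions of repressive marks hold no defining marker of the cell type, and the labelled cell type was not checked.

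H3K9me3 and H3K27me3 are trimethylations of different lysines on the tail of histone H3, and both are found on silent chromatin. H3K9me3 is laid down by enzymes such as Setdb1 and the Suv39h pair, and in embryonic stem cells it covers retroelements, clusters of zinc finger genes and the repeats around centromeres. H3K27me3 is laid down by Polycomb repressive complex 2, and in these cells it covers the unmethylated CpG-rich promoters of genes for developmental regulators, with the Hox clusters as the best known wide domains. The comparison asked at which distance along the chromosome these kinds of silent chromatin lie apart.

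On the 19 autosomes there were 17030, 28660, 41393 and 32802 peaks of H3K9me3 in replicates 1 to 4, and 6917 and 16916 of H3K27me3 in replicates 1 and 2. The H3K9me3 peaks covered 47.3, 35.4, 53.5 and 41.3 Mb, and the H3K27me3 peaks 24.1 and 28.3 Mb. Replicate 1 of each mark belongs to a first processing batch, named by its MACS2 version, and the other libraries to a second. H3K9me3 replicate 1 stood apart by wide peaks, with a median of 1900 bp against 813 to 838 bp in the other 3. H3K27me3 replicate 1 had wide peaks too, with a median of 2526 bp against 783 bp in replicate 2. The H3K27me3 list with tamoxifen of the first batch had 731 bp, so wide peaks were not shared by that whole batch. For H3K9me3 replicate 4 the antibody field of the labels reads none, and its group was taken from its title. Its correlation with replicates 2 and 3 over windows of 1 Mb was 0.949 and 0.948, and with the H3K27me3 lists -0.150 and -0.134. Values without it stand beside the main results below, except for the runs of bins, the bins rich in both marks that are named, and the correlation by distance between marks.

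Windows are called bins here. They were cut at every 1 Mb from base 0 of build mm9, and 2425 bins lay between the first and the last peak of the autosomes. The same count was made in 24160 bins of 100 kb. A level is the percentage of a bin's bases that lie in peaks of 1 list. It says how much of the bin was called, not how strong the signal was, since the lists hold no heights.

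Lists of the same mark were alike along the genome, and lists of different marks were close to unrelated at 1 Mb, with a weak opposite trend. The 6 pairs of H3K9me3 lists had a Spearman correlation of 0.870 over the 2425 bins, with a range of 0.779 to 0.959. The pair of H3K27me3 lists had 0.935. The 8 pairs of different marks gave -0.139 ± 0.0812 (SD over pairs), from -0.262 to -0.0536, and all 8 were below 0. Pearson correlations were 0.897, 0.942 and -0.1203 for the same kinds of pair. These correlations are descriptions over bins that share their libraries and resemble their neighbours, so no p-value is given for them.

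The mean over the 7 pairs within marks exceeded the mean over the 8 pairs between marks by 1.02. The replicates are libraries and may not be separate cultures, so the test below measures the spread between libraries. Of the 15 ways to assign 4 and 2 libraries to the marks, the true one gave the largest difference (exact permutation test, p = 0.0667, the smallest that 15 assignments allow). The difference was 1.00 without H3K9me3 replicate 4 and 1.05 without H3K9me3 replicate 1, with the smallest p that fewer libraries allow in both.

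H3K9me3 replicate 1 showed the strongest opposite trend. Its correlations with the H3K27me3 lists were -0.262 and -0.259, while those of replicates 2, 3 and 4 ranged from -0.150 to -0.0536. Within the first batch the correlation between marks was -0.262, and within the second it was -0.0867 on average, from -0.134 to -0.0536. The sign was the same in both batches, and the value of the first lay outside the range of the second. Without replicate 1 the mean between marks was -0.0987, and without replicate 4 it was -0.138. The width of the peaks of replicate 1 moves with this difference, and its part in it was not tested.

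**Figure D1:**
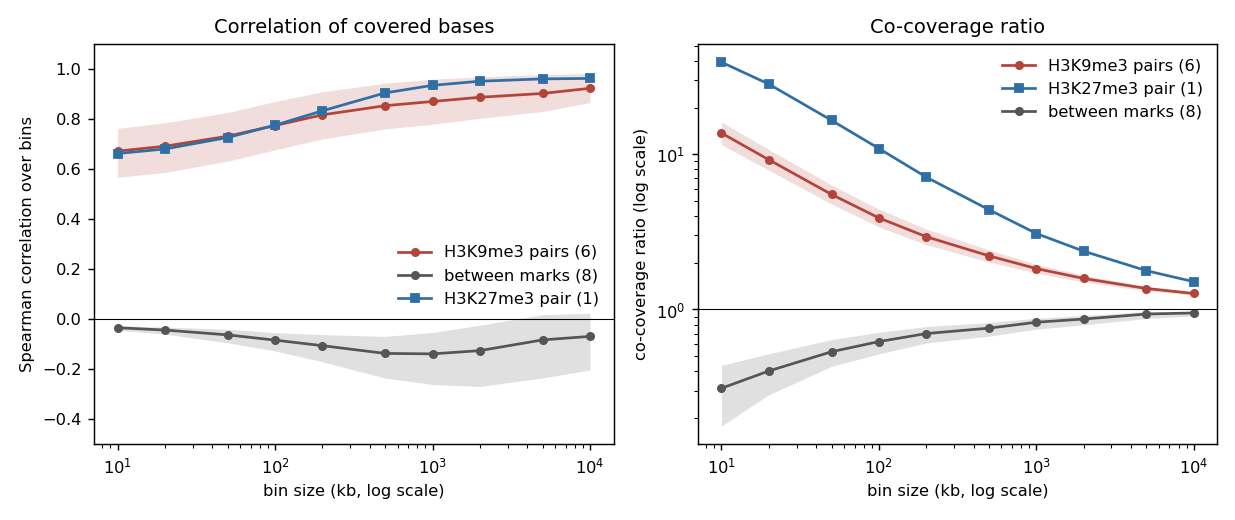
Left, Spearman correlation of covered bases over bins (vertical axis) against the bin size in kb (horizontal axis, log scale), for the 6 pairs of H3K9me3 lists, the pair of H3K27me3 lists and the 8 pairs between marks; points are means and bands run from the lowest to the highest pair. Right, the co-coverage ratio of the same pairs on a log scale, where 1 means that placement of the lists is unrelated; between marks it climbs from 0.311 at 10 kb to 0.827 at 1 Mb and 0.950 at 10 Mb.

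The scale at which the marks part was read from bins of 10 kb to 10 Mb. As a measure, the co-coverage ratio was taken, which is the mean product of the bases covered by a pair of lists over all bins, divided by the product of their means. It is 1 where the lists are placed without regard to each other and 0 where they never meet in a bin. Between marks it was 0.311 ± 0.0937 (SD over 8 pairs) at 10 kb, 0.402 at 20 kb and 0.534 at 50 kb. It was 0.621 ± 0.0699 at 100 kb, 0.758 at 500 kb and 0.827 ± 0.0542 at 1 Mb. At 5 Mb it was 0.934 and at 10 Mb 0.950. The plot of correlation and co-coverage against bin size shows that the ratio stayed below 1 in every pair at each size tried, since the highest pair at 10 Mb had 0.971. The ratio was thus lowest at the smallest bins and nearer 1, but still below it in each pair, at megabases. By its definition it is 1 plus the Pearson correlation times the coefficients of variation (SD over mean) of both lists. From 100 kb to 1 Mb these coefficients fell from 1.67-1.98 to 0.901-1.02 for H3K9me3. For H3K27me3 they fell from 3.39 and 3.11 to 1.46 and 1.51. The Pearson correlation went from -0.0632 to -0.120. The lowest value it can take moves with these coefficients too, since the ratio cannot fall below 0. The climb of the ratio and the fall of the correlation thus do not settle whether opposition weakened. The Spearman correlation between marks ordered the sizes otherwise. It was -0.0346 at 10 kb, where 75.1% of bins held neither mark, and -0.0842 at 100 kb. It was -0.137, -0.139 and -0.126 at 500 kb, 1 Mb and 2 Mb, which differ by less than the SD over pairs, and -0.0692 at 10 Mb, where the highest pair reached 0.0235. In the first batch it was lowest at 2 Mb, at -0.270, and in the second at 500 kb, at -0.0972. The Pearson correlation was -0.0263 at 10 kb, -0.136 at 2 Mb and -0.126 at 10 Mb. Correlation thus gave no single size, and co-coverage alone was lowest at the smallest bins. Without H3K9me3 replicate 4 the co-coverage ratio between marks was 0.315 at 10 kb, 0.628 at 100 kb and 0.832 at 1 Mb.

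Pairs of the same mark went the other way. For H3K9me3 the co-coverage ratio fell from 13.7 at 10 kb to 3.89 at 100 kb and 1.83 at 1 Mb. For H3K27me3 it fell from 39.2 to 10.9 and 3.09. Lower variation over wider bins goes into this fall too. The Pearson correlation rose instead, from 0.790 at 10 kb to 0.897 at 1 Mb for H3K9me3 and from 0.903 to 0.942 for H3K27me3. H3K27me3, with fewer peaks per list, was the more concentrated of the marks at each of these sizes.

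Presence alone, without amount, was compared where it could vary. At 10 kb, 13062 bins held peaks of all 4 H3K9me3 lists and 6981 held peaks of both H3K27me3 lists, and 132 held both, which is 0.350 times the product of these shares. At 100 kb, 1086 of 24160 bins held both, 0.740 times the product. These were 25.6% of the H3K27me3 bins and 13.0% of the H3K9me3 bins. Without H3K9me3 replicate 4 these factors were 0.348 and 0.743. At 500 kb the factor was 0.970, but with 4102 bins of H3K9me3 and 2563 of H3K27me3 among 4840 it could lie only between 0.840 and 1.18. At 100 kb it could lie between 0 and 2.89, so the sizes are not compared by it. At 1 Mb 1694 of 2425 bins held both, but with 2353 bins of H3K9me3 and 1741 of H3K27me3 the number could lie only between 1669 and 1741, so it says nothing of separation at that size. Of the 1741 1 Mb bins with H3K27me3 in both lists, 97.3% also held H3K9me3 in all 4, and of all 1 Mb bins 97.0% did. A bin of 1 Mb was seldom free of H3K9me3.

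Likeness within a mark was also seen inside 1 Mb bins. When the 100 kb bins were centred on the mean of their own 1 Mb bin, the Pearson correlation of what remained was 0.838 among H3K9me3 lists (0.731 to 0.939), 0.939 between the H3K27me3 lists and -0.0454 between marks (-0.0477 to -0.0430). Without H3K9me3 replicate 4 the values were 0.801 among H3K9me3 lists and -0.0448 between marks. The part of a list's variance over 100 kb bins that lay between 1 Mb bins was 26.1%, 26.9%, 29.3% and 28.5% for H3K9me3. It was 18.5% and 23.6% for H3K27me3. The H3K9me3 lists all had a larger share between 1 Mb bins than both untreated H3K27me3 lists. The H3K27me3 lists with tamoxifen had 19.7% and 28.1%, the latter within the range of the H3K9me3 lists. The larger share thus did not hold against every H3K27me3 list.

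Neighbouring bins resembled each other for both marks. The Spearman correlation of a 1 Mb bin with the next was 0.370 for H3K9me3 (0.340 to 0.395 over 4 lists) and 0.337 for H3K27me3 (0.275 and 0.400). At a distance of 5 Mb it was 0.194 (0.138 to 0.220) and 0.0980 (0.0764 and 0.1197). At 10 Mb it was 0.119 and 0.0487, and at 20 Mb 0.0919 and 0.0920. H3K9me3 lists lay above both untreated H3K27me3 lists at 5 and 10 Mb and not at 1 or 20 Mb. The gap at 10 Mb was small, with 0.0772 in H3K9me3 replicate 1 and 0.0706 in H3K27me3 replicate 2. The H3K27me3 lists with tamoxifen had 0.0546 and 0.0891 at that distance, the latter above H3K9me3 replicate 1. Without H3K9me3 replicate 4 the H3K9me3 means at 1, 5 and 10 Mb were 0.367, 0.187 and 0.111. Between marks the correlation was -0.0842 in the same 100 kb bin, -0.0594 at 100 kb distance, -0.0235 at 500 kb, -0.0147 at 1 Mb and -0.0169 at 2 Mb. With bins of 1 Mb it was -0.139 in the same bin, -0.0595 at 1 Mb, -0.0273 at 10 Mb and -0.0575 at 20 Mb. It was thus nearer 0 at each distance tried than in the same bin, without a steady order among the distances.

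A fit over all bins asked which of them took unequal shares of the marks. The share of each list's covered bases in a bin was compared by limma over 2416 bins that at least 2 lists covered, with Benjamini-Hochberg adjusted p under 0.05 as the threshold. In 1097 bins the share was higher for H3K9me3, which is 45.4% of those tested, and in 728 it was higher for H3K27me3, which is 30.1%. Together 75.5% of the bins were called. The fit takes its error from the spread between libraries, which may not be separate cultures. Without H3K9me3 replicate 4 the shares were 42.9% and 27.8%. Bins called for H3K9me3 had a median of 2.09% covered by H3K9me3 and 0.0566% by H3K27me3. In bins called for H3K27me3 these medians were 0.764% and 2.16%. The lesser mark was thus at a higher median level in H3K27me3 bins than in H3K9me3 bins. These levels come from the values that called the bins, so this is a description. Over all 1 Mb bins H3K9me3 also covered more, with list medians of 1.02% to 1.63% against 0.561% and 0.531% for H3K27me3. With bins of 100 kb, 34.5% of 17232 bins were higher for H3K9me3 and 19.6% higher for H3K27me3, 54.1% in all.

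The split depends on the scale of the values. Over all bins tested the median difference was 0.49 on the log2 scale (H3K9me3 minus H3K27me3, shares plus a pseudocount of 50 bases per Mb covered). When covered bases were not divided by the total of the list, that median was 1.06, and 53.8% of bins were higher for H3K9me3 and 18.3% for H3K27me3. The share of calls that were for H3K9me3 was 60.1% with shares and 74.7% without them.

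Most runs of neighbouring called bins were short, and no number expected from the shares called was set beside them. The 1097 H3K9me3 bins formed 461 runs with a median of 2 bins, 223 of them of a single bin. The 728 H3K27me3 bins formed 405 runs with a median of 1 bin, 242 of them of a single bin. The longest H3K9me3 runs had 13 bins and lay on chromosome 13 from 3000001 to 16000000, at the centromere side, and on chromosome 14 from 81000001 to 94000000. The longest H3K27me3 run had 8 bins, on chromosome 19 from 41000001 to 49000000. There were 3 runs of 7 bins, which began at 97000001 on chromosome 15, at 133000001 on chromosome 4 and at 146000001 on chromosome 7. Those on chromosomes 7 and 15 reached the last bin of their chromosome.

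The bins with most H3K9me3 are described next, and leaving out H3K9me3 replicate 4 gave the same 10 bins of 1 Mb and the same 5 of 100 kb. They were ranked by the mean share over the 4 lists, so their levels for H3K9me3 are a description. The first was on chromosome 13 from 62000001 to 63000000. H3K9me3 covered 15.6%, 12.4%, 18.9% and 15.8% of it in replicates 1 to 4, and H3K27me3 covered 0.396% and 0.243%. It was made of many peaks, 40, 63, 87 and 71 in the 4 lists, none wider than 17038 bp. Large families of zinc finger genes are known from this chromosome, and no gene annotation of mm9 was used here to place them.

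The second, on chromosome 8 from 4000001 to 5000000, was covered over 14.0%, 12.5%, 15.6% and 13.0% by H3K9me3. It is the member of the first 10 with most H3K27me3, at 2.42% and 2.86%. Of its 10 bins of 100 kb, 7 were covered over more than 10% by H3K9me3 and 2 by H3K27me3, and none by both. With so few bins this is a description.

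The third, on chromosome 7 from 27000001 to 28000000, had 13.3%, 12.0%, 15.7% and 12.1% for H3K9me3 and no H3K27me3 peak in either untreated list. Of the other 7, 3 were neighbours on chromosome 12, from 18000001 to 21000000. A further bin was the first of chromosome 13, which starts at 3000001 and heads the longest run above. The rest began at 37000001 on chromosome 6, at 7000001 on chromosome 1 and at 146000001 on chromosome 4. Their mean H3K9me3 level was 10.8% to 12.7% and their mean H3K27me3 level 0.0205% to 0.609%. Lists differed most in the bin on chromosome 6, at 7.28%, 14.6%, 17.1% and 10.9% in replicates 1 to 4, and in the bin on chromosome 4, at 16.8%, 7.78%, 11.6% and 9.11%. In the former replicate 1 was the lowest list and in the latter it was the highest. The lowest H3K9me3 list stood above the highest H3K27me3 list in all 10 bins, which their choice makes likely. Over all bins tested, every H3K9me3 list lay above both H3K27me3 lists in its share in 47.6%, and below both in 32.8%.

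**Figure D2:**
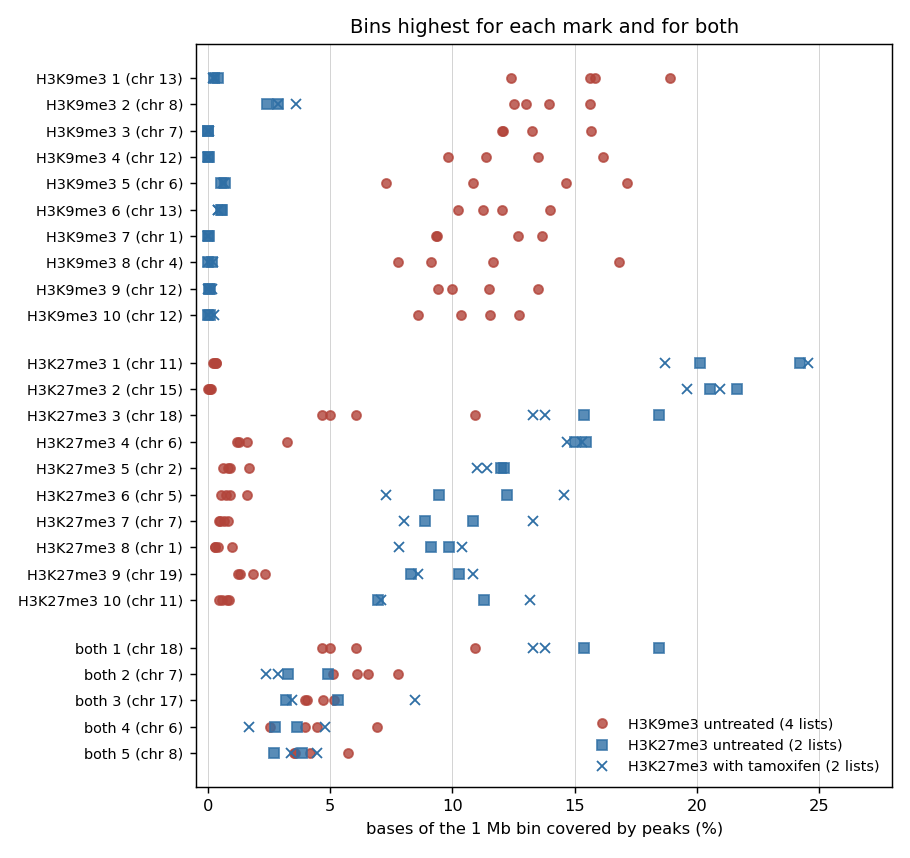
Percentage of bases covered by peaks (horizontal axis) in the 1 Mb bins ranked highest for H3K9me3 (10), for H3K27me3 (10) and for both marks (5), one row per bin. Circles are the 4 H3K9me3 lists, squares the 2 untreated H3K27me3 lists and crosses the 2 H3K27me3 lists with tamoxifen; in the H3K27me3 rows the bin on chromosome 18 is the only one in which an H3K9me3 list passes 10%, and it is the first of the bins for both.

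The bins with most H3K27me3 were headed by the Hox clusters. Hox genes encode the homeodomain factors that set position along the body axis. RefSeq's table for GRCm38.p6 places 10 Hoxb genes on chromosome 11, 9 Hoxc genes on chromosome 15, 11 Hoxa genes on chromosome 6 and 9 Hoxd genes on chromosome 2. That these clusters lie in the mm9 bins named here is general knowledge of the mouse genome and was not read from an annotation.

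The bin of the Hoxb cluster, on chromosome 11 from 96000001 to 97000000, was covered over 20.1% and 24.2% by H3K27me3 and over 0.218%, 0.343%, 0.244% and 0.332% by H3K9me3. That of the Hoxc cluster, on chromosome 15 from 102000001 to 103000000, had 20.5% and 21.6% for H3K27me3. H3K9me3 was lowest here, with no peak in replicate 1 and 0.0989%, 0.133% and 0.0417% in the others. That of the Hoxa cluster, on chromosome 6 from 52000001 to 53000000, had 15.0% and 15.4% for H3K27me3 and 1.26%, 1.60%, 3.23% and 1.20% for H3K9me3. That of the Hoxd cluster, on chromosome 2 from 74000001 to 75000000, had 12.0% and 12.1% for H3K27me3 and 1.66%, 0.602%, 0.908% and 0.816% for H3K9me3.

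At 100 kb these 4 loci were the first 4 bins for H3K27me3 and held no H3K9me3 base in any of the 4 lists. The bin on chromosome 6 from 52100001 to 52200000 was covered over 96.8% and 97.1%, by 3 and 4 peaks. The bin on chromosome 2 from 74500001 to 74600000 was covered over 91.6% and 95.3%. Those on chromosome 15 from 102800001 to 102900000 and on chromosome 11 from 96100001 to 96200000 had means of 85.7% and 85.4%. The fifth, on chromosome 2 from 33400001 to 33500000, had 69.6% and 78.8%, also without H3K9me3. The H3K9me3 of the Hox bins of 1 Mb thus lay in other bins of 100 kb. The other bins among the first 10 at 1 Mb lay on chromosomes 5, 7, 1, 19 and 11, with mean H3K27me3 levels of 9.14% to 10.8%, apart from the bin on chromosome 18 described next.

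The third bin for H3K27me3, on chromosome 18 from 37000001 to 38000000, was also rich in H3K9me3. By the same general knowledge it holds the clustered protocadherins, cell surface proteins whose choice of promoter gives neurons their identity. RefSeq lists 57 Pcdha, Pcdhb and Pcdhg genes on chromosome 18. H3K27me3 covered 18.4% and 15.4% of the bin and H3K9me3 4.65%, 4.99%, 10.9% and 6.05%. Inside it, 6 of the 10 bins of 100 kb were covered over more than 10% by H3K27me3 and 1 by H3K9me3, none by both. The highest 100 kb bin had 35.7% for H3K27me3 and another had 22.2% for H3K9me3. Its H3K27me3 was spread over 51 and 66 peaks, none wider than 22616 bp, whereas the widest peak of the Hoxb bin measured 118572 bp and 97512 bp in replicates 1 and 2.

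At 100 kb the 5 bins with most H3K9me3 had lower mean levels than the 5 with most H3K27me3, 40.0% to 51.0% against 74.2% to 97.0%. The first, on chromosome 6 from 37700001 to 37800000, was covered over 27.2%, 57.8%, 72.1% and 46.9% by 13 to 18 peaks. The second and the fifth were neighbours on chromosome 10, from 82800001 to 83000000, with means of 48.5% and 40.0%. The third, on chromosome 7 from 50400001 to 50500000, had 46.6% ± 3.08 (SD, n = 4), and the fourth, on chromosome 4 from 155500001 to 155600000, had 40.5% ± 3.22. The fourth also held H3K27me3, at 5.05% and 4.65%. Of these 5 bins 1 lay inside the first 10 bins of 1 Mb, against 4 of 5 for H3K27me3, which are the Hox loci. Over the top 1% of 100 kb bins, 242 per mark, the order was reversed. Of these 35 lay inside the first 10 bins of 1 Mb for H3K9me3 and 24 for H3K27me3.

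Bins rich in both marks were few. The top 10% of bins for each mark, 242 of 2425, had 8 bins in common, against 24.2 given by the sizes of the sets alone. This is 0.331 times that number. With the top 5% the factor was also 0.331, from 2 common bins of 121, and with the top 20% it was 0.485. At 100 kb 120 of 2416 bins were shared, a factor of 0.497. Without H3K9me3 replicate 2 the number at 1 Mb fell to 5. At the border of the top 10% the bins just inside and just outside had 3.95% and 3.92% for H3K9me3 and 2.91% and 2.89% for H3K27me3.

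**Figure D3:**
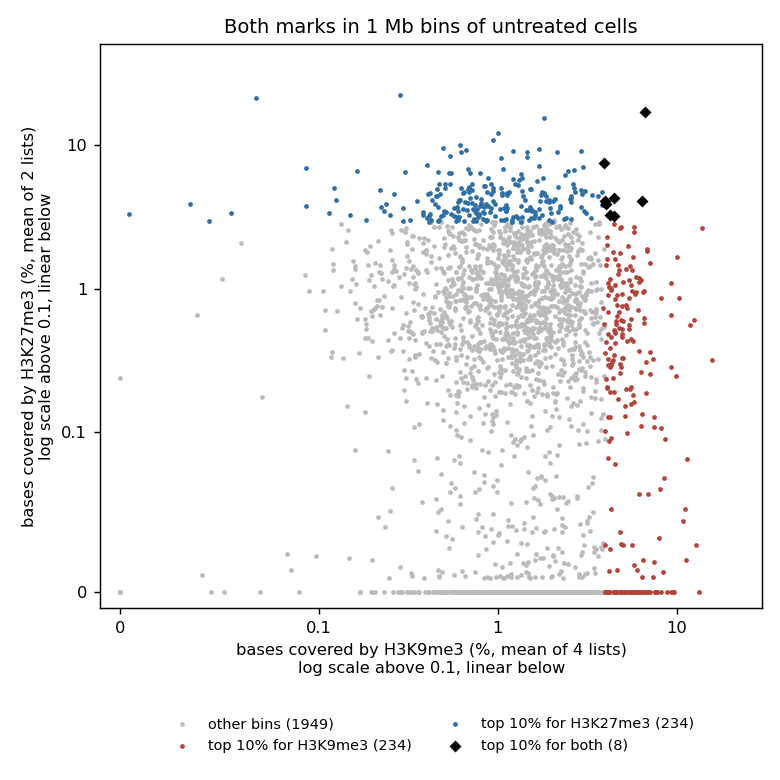
Each point is a 1 Mb bin, with the percentage of bases covered by H3K9me3 (mean of 4 lists, horizontal axis) and by H3K27me3 (mean of 2 lists, vertical axis), both on a log scale above 0.1 and linear below. The 234 red and 234 blue bins are in the top 10% for 1 mark, and the 8 black diamonds are in the top 10% for both.

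After the bin on chromosome 18, the next for both marks lay on chromosome 7 from 69000001 to 70000000. It had 6.11%, 5.13%, 7.76% and 6.53% for H3K9me3 and 4.89% and 3.27% for H3K27me3. The third, on chromosome 17 from 34000001 to 35000000, had means of 4.46% and 4.25%. It was also the only one of the first 5 in which a bin of 100 kb was covered over more than 10% by both marks, 1 of its 10. The fourth and the fifth began at 121000001 on chromosome 6 and at 48000001 on chromosome 8. Over the 10 bins of 100 kb in each of the 5, the Spearman correlation between the marks was -0.127 on chromosome 18, -0.396 on chromosome 7, 0.383 on chromosome 17, -0.886 on chromosome 6 and 0.163 on chromosome 8, without a common sign. In 4 of the 5 bins rich in both marks, no 100 kb was thus rich in both by that threshold. Of the 10 bins of 100 kb in each, 1, 2, 2, 2 and 1 passed it for H3K9me3. For H3K27me3 6, 2, 2, 2 and 1 did. With such counts few or no shared bins would be seen even without separation, so their lack does not show that the marks lie apart.

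Some bins of 100 kb did hold both marks. The first of these, on chromosome 11 from 3000001 to 3100000, had 10.3%, 15.0%, 22.1% and 22.7% for H3K9me3 and 30.3% and 30.5% for H3K27me3. It is the first 100 kb of that chromosome's bins, on the side of the centromere. The second was on chromosome 11 from 11900001 to 12000000, with means of 12.8% and 19.9%. The next 3 began at 116300001 on chromosome 2, at 45200001 on chromosome 19 and at 77700001 on chromosome 8. Their means were 12.1% to 15.8% for H3K9me3 and 10.6% to 26.5% for H3K27me3. No list of places that give peaks with any antibody was used, and the inputs were not analysed here, so the part of such places in these bins was not tested.

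Bins without either mark were rare at 1 Mb. All 6 lists were empty in 8 of 2425 bins, 0.330%. Of these 6 formed 1 run on chromosome 7 from 40000001 to 46000000, and the others began at 86000001 on chromosome 1 and at 21000001 on chromosome 8. The peak-free stretch on chromosome 7 measured 7361729 bp, from 39191143 to 46552871. In it the lists with tamoxifen held 0 peaks and 1 peak. The next stretches had 2046222 bp on chromosome 8 and 2013557 bp on chromosome 1. No map of assembly gaps or of mappable bases of mm9 was used, so a stretch without reads cannot be told apart from one without marks.

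The marks differed in how often a bin was empty. At 1 Mb 9 bins lacked H3K9me3 in all 4 lists, 0.371%, while 432 lacked H3K27me3 in both, 17.8%. At 100 kb 16.9% of bins lacked both marks, 24.8% lacked H3K9me3 and 69.9% lacked H3K27me3. The H3K9me3 lists numbered 4 and those of H3K27me3 only 2, so single lists are the fairer comparison. In single lists 33.1% to 56.8% of 100 kb bins were empty for H3K9me3 and 81.4% and 70.9% for H3K27me3, without overlap. Single lists still differ in their number of peaks, and within each mark the empty share fell as that number rose. Empty bins were not compared at equal numbers of peaks, so the part of peak number was not tested.

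The covered bases of H3K27me3 were held in fewer bins, in lists with fewer peaks and fewer covered bases than any H3K9me3 list. The part of these in the difference was not tested. The top 10% of 1 Mb bins of each list held 31.7%, 33.9%, 31.0% and 33.1% of the covered bases of the H3K9me3 lists. They held 42.2% and 44.8% of those of the H3K27me3 lists. The means were 32.4% ± 1.31 (n = 4) and 43.5% ± 1.85 (SD, n = 2), and the lists of the marks did not overlap (two-sided exact permutation test p = 0.133, the smallest that 4 against 2 allow in this test). This measure was 1 of 7 compared between lists by this test. In all 7 the untreated lists of the marks did not overlap, each p was 0.133, and so was each after adjustment over the 7. Without H3K9me3 replicate 4 these lists did not overlap in any of the 7 either. Leaving out a list cannot create overlap, so this is no check. In the share of variance between 1 Mb bins, an H3K27me3 list with tamoxifen lay within the H3K9me3 range, at 28.1%.

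The marks also took different ends of the chromosomes. Mouse autosomes carry the centromere at their start. In the first 5 bins of the 19 autosomes, H3K9me3 covered 2.17, 2.26, 2.15 and 2.33 times the level of the interior bins, and H3K27me3 0.661 and 0.678 times. In the last 5 bins the factors were 0.875, 0.953, 0.891 and 0.886 for H3K9me3 and 1.65 and 1.69 for H3K27me3. All H3K9me3 lists thus lay above 1 at the start and below 1 at the end, and both H3K27me3 lists did the reverse (exact permutation p = 0.133 for each end). The plot of coverage along the autosomes shows that the H3K9me3 excess reached over the first 20% of the chromosome. Of the 234 bins in the top 10% for H3K9me3 alone, the median position was 19.3% along the chromosome, and of the 234 for H3K27me3 alone it was 65.4%.

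**Figure D4:**
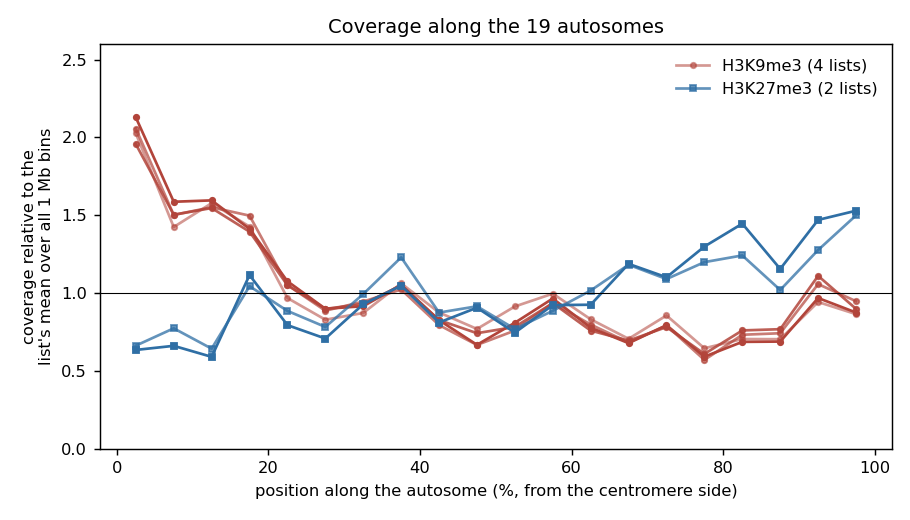
Coverage relative to the mean of the same list over all 1 Mb bins (vertical axis) in 20 equal parts of the 19 autosomes, from the centromere side on the left (horizontal axis, % of the binned length). Each line is a list; the 4 H3K9me3 lists begin near 2 and the 2 H3K27me3 lists begin below 1 and end near 1.5.

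Whole chromosomes differed as well. A density of 1 means that a chromosome holds the share of a list's covered bases that its number of bins gives. Chromosome 11 had 1.62 and 2.08 for H3K27me3 and 0.783, 0.832, 0.851 and 0.997 for H3K9me3. Chromosome 19 had 1.42 and 1.41 for H3K27me3 and 0.742 to 0.788 for H3K9me3, and chromosome 2 had 1.31 and 1.27 against 0.666 to 0.762. On chromosomes 16, 14 and 3 H3K27me3 was low, at 0.550 to 0.728 over both lists and all 3 chromosomes, while H3K9me3 was at 0.890 to 1.04. Every H3K9me3 list lay above both H3K27me3 lists on 8 of the 19 autosomes, 42.1%, and below both on 7, 36.8%. Leaving out H3K9me3 replicate 4 could only raise these counts, and they stayed the same.

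Chromosome 8 was high for both marks, with 1.16 to 1.28 for H3K9me3 and 1.35 and 1.47 for H3K27me3. The correlation between marks was -0.152 without this chromosome and -0.132 without chromosome 1, against -0.139 with all, in checks added after the data were seen. Over the 19 autosomes the densities of the marks had a mean Spearman correlation of -0.216 between lists of different marks (-0.368 to -0.0509), and of 0.657 among H3K9me3 lists (0.419 to 0.947). Within single chromosomes the mean correlation between marks over 1 Mb bins was below 0 on 17 and above 0 on chromosomes 16 and 18, at 0.0239 and 0.00780.

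**Figure D5:**
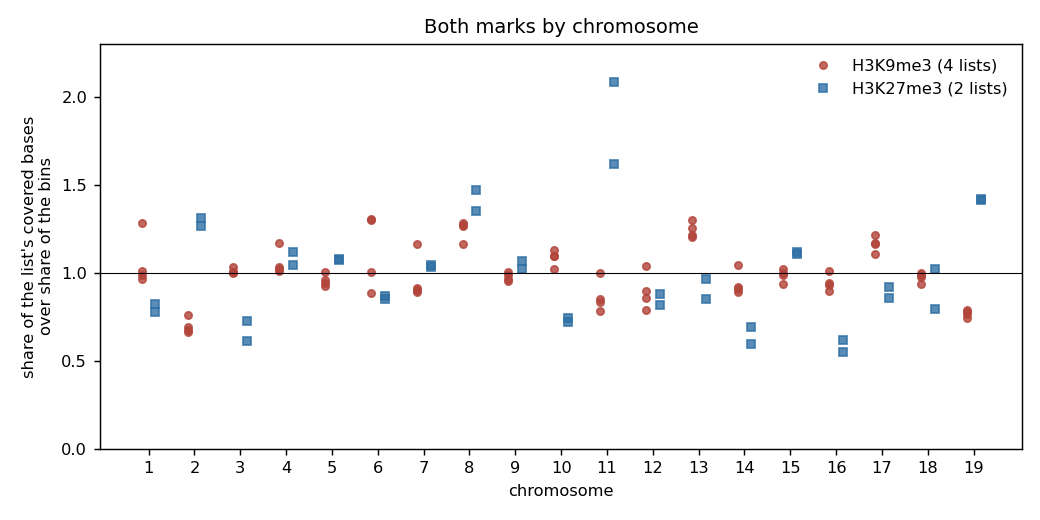
Density of each mark by chromosome (vertical axis, share of the list's covered bases over the chromosome's share of the bins; horizontal axis, chromosome), with 1 point per list. Chromosome 11 has the highest H3K27me3 densities, 1.62 and 2.08, and chromosomes 4 and 8 lie above 1 in all 6 lists.

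The X chromosome, outside the bins above, was poorly covered by both marks in 5 of the 6 lists. Its level over that of the autosomes was 0.238, 0.314 and 0.248 in H3K9me3 replicates 2 to 4 and 0.194 and 0.126 for H3K27me3. In H3K9me3 replicate 1 it was 0.819, apart from all others.

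The lists with tamoxifen, which had no part in ranking or classing the bins, were like the untreated H3K27me3 lists in where they lay. Their Spearman correlation with the untreated H3K27me3 lists over 1 Mb bins was 0.914 to 0.969 (4 pairs) and with the H3K9me3 lists -0.266 to -0.0477 (8 pairs). The 234 bins of the top 10% for H3K27me3 alone held 39.9% and 42.5% of the covered bases of the untreated lists that helped to choose them, and 39.0% and 42.3% of those of the tamoxifen lists. The 234 bins of H3K9me3 alone, chosen without H3K27me3 levels other than to set aside shared bins, held 3.99% and 4.16% in untreated cells and 4.31% and 3.98% with tamoxifen. For both sets the means of the states differed by less than the 2 lists of a state did. In the Hoxb bin tamoxifen lists had 18.7% and 24.6%. In the bin on chromosome 18 they had 13.8% and 13.3%, against 18.4% and 15.4% in untreated cells. In how many of all bins both tamoxifen lists lie below both untreated ones was not counted. No effect of tamoxifen is thus read from this bin. At 100 kb the correlation with the untreated lists was 0.732 to 0.819.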

How the data were processed

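For each library the authors deposited peak positions in bp on a chromosome, without heights, scores or reads. Bowtie 0.12.7 is named on mm9, with MACS2 2.0.10 for replicate 1 of each group (the first batch) and 2.1.0 for the others (the second), per the submitters' processing notes. How peaks were called (mode, threshold, control) is not given in the sources used here, and calling and depth change how much is covered. The depth is unknown.

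Covered bases were summed in bins from base 0, between the first and last peak of a chromosome in any of 8 lists, which left out 57 bins of 1 Mb at chromosome starts. Shares (bases per Mb covered by the list) plus 50 were compared on the log2 scale with limma 3.58.1 (variance trend, R 4.3.3), over bins covered in at least 2 lists. All else was done in Python 3.11.15, with SciPy 1.17.1, pandas 2.3.3 and NumPy 2.4.6, and drawn in Matplotlib 3.10.9. Binning and the limma fit were checked on simulated data. No pair of lists of a mark shared more than 1 identical peak. Named bins were the 10 highest per mark by mean share, the 5 highest for both by the lower percentile rank, and runs empty in all 6 lists. At 100 kb they were the 5 highest, for both marks too. Lists and rules were chosen with earlier results of these data known. Alternatives were other bin sizes, shifted bins, peak filters, leaving out libraries or chromosomes (values without H3K9me3 replicate 4 for co-coverage, neighbours and named bins, and bins from the 6 lists' range, were added after the data were seen), other pseudocounts and filters, unscaled values and a batch term. No mm9 sequence or annotation was used, so no sequence is shown.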

Additional observations from a re-analysis of the deposited data

Results flagged for a closer look

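The rule used here flags about 1 in 20 sets of independent, normally distributed values. The sets checked all come from the same 4 lists and are not independent, so that rate is no measure for their count. In 59 sets of 4 H3K9me3 values checked for a list far from the other 3, 7 had one. H3K9me3 replicate 1 accounts for 6 of them. Its coverage of the X chromosome over that of the autosomes was 0.819, its median peak width was 1900 bp, and its densities on chromosomes 4, 7 and 8 were 1.17, 1.16 and 1.16, high on the first pair and low on chromosome 8. It also covered 0.994% of the H3K27me3-rich bin on chromosome 1 from 74000001 to 75000000, against 0.290% to 0.403% in the others. H3K9me3 replicate 4 had a density of 1.28 on chromosome 1, against 0.965 to 1.01 in the others. The causes were not tested.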

How the results depend on the processing

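The excess of correlation within marks over that between marks was 1.02 and kept its sign in all 20 alternatives, from 0.858 with bins of 100 kb to 1.05 without H3K9me3 replicate 1; leaving out libraries gave 1.00 to 1.05. The mean correlation between marks stayed below 0 in its 19 alternatives and moved by more than the spread over pairs with bins of 10 kb (-0.0346) and 20 kb (-0.0439). Leaving out libraries gave -0.163 to -0.0987. The share of bins higher for H3K27me3 was 19.6% with bins of 100 kb and 18.3% without division by list totals. Leaving out libraries gave 26.0% to 31.8%, and 41.9% to 47.4% for H3K9me3; a lone H3K27me3 list was there assumed to vary like the others. Bins without either mark rose to 16.9% at 100 kb, and were 0.330% to 0.371% without single libraries. The factor of bins rich in both marks was 0.207 to 0.414 without single libraries. The likeness of tamoxifen and untreated H3K27me3 lists was 0.793 at 100 kb against 0.950, and 0.937 to 0.962 without single libraries. No replicate number pairs the marks beyond number 2. A replicate block by batch gave 47.6% of bins higher for H3K9me3 and 32.1% for H3K27me3. The causes were not tested.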
